A study of Nematostella vectensis with 8 samples.

Results

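The 100 most abundant transcribed genes of the *Nematostella vectensis* gastrula are described here, gene by gene where they stand apart and as a set elsewhere. They were chosen by level alone: the 100 genes, of 24520 in all, with the highest mean TPM over the 4 Scramble_control libraries, after 4 capsule genes had been left out. TPM is an abundance per unit of transcript length, scaled to the same total in every library, so length is part of the choice. The mean control TPM is therefore given below as a description. The 4 capsule genes would have ranked 128, 310, 490 and 730, so leaving them out changed no member.

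Nematostella is a sea anemone, and its gastrula is an embryo of an outer and an inner cell layer that has begun to lay down its first specialised cells. In animal embryos of this age the most abundant messenger RNAs are usually those of proteins that every cell needs in bulk, such as ribosomal proteins, translation factors, histones and cytoskeletal proteins, together with transcripts stored in the egg. Many such proteins are small and are encoded by short messages. The identifiers of the deposited tables could not be linked to gene names here, so no role is assigned to any single member.

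The comparison was between groups of wild-type whole embryos collected 28 hours after fertilization at 24 °C. Embryos of 4 libraries had been injected with NvfoxE-like shRNA, a pair of short hairpin RNAs against NvfoxE-like, a forkhead transcription factor gene of the stinging-cell (cnidocyte) lineage. Embryos of 4 control libraries had been injected with a scramble RNA. About 1000 injected embryos were pooled per library, and in such bulk samples fewer cells of a type and less RNA per cell cannot be told apart. Replicates 3 and 4 of both groups carry library names that begin with LA20, and replicates 1 and 2 names that begin with LA19. The labels give all 8 libraries 1 batch value, LA19, and do not say what the prefix stands for.

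The libraries held 18656270 to 26073612 estimated counts, and 23769 genes had a count in at least 1 library. NvfoxE-like itself, checked first as the gene that was targeted, had 7.43, 3.53, 12.2 and 14.6 TPM in shRNA replicates 1 to 4, against 19.99, 6.78, 44.6 and 41.4 TPM in control replicates 1 to 4. It was lower in every pair of the same number, although the groups overlapped, because control replicate 2 lay below 3 of the 4 shRNA libraries. Its log2 fold change was -1.57 ± 0.14 (SE) with the replicate number as a block (adjusted p = 0.000541, edgeR) and -1.63 ± 0.40 without it (adjusted p = 1, edgeR).

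NV2.1062 stood far above the rest. It had 60469, 74517, 43412 and 55221 TPM in the shRNA libraries, against 62785, 81434, 54278 and 54603 TPM in the controls. It ranked first in all 8 libraries and took 5.84 ± 1.29% of TPM in shRNA libraries and 6.33 ± 1.27% in controls (SD, n = 4 each). Of its 5 annotated transcripts, 1 carried 99.9% of its TPM. Its message is 420 bases long when transcripts are weighted by TPM, and it drew 0.356% to 1.25% of the estimated counts of a library.

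The other 99 members fell off gradually. NV2.11975 was second, with 9040, 12345, 5179 and 7859 TPM in the shRNA libraries, against 13313, 15024, 9585 and 6814 TPM in the controls. Its rank in single libraries varied between 2 and 10. This transcript of 208 bases is the shortest of the set, and Salmon's effective length, the number of positions from which a fragment could be drawn, was 24.6 bases on average, so its TPM rests on a mean of 5533 counts and on a small divisor. The difference between full and effective length follows the fragment size of a library. Its median over transcripts of 2000 bases or more was 299.6 bases in control replicate 1 and 305 in control replicate 3. In the other 6 libraries that median lay between 315 and 322. In transcripts as short as NV2.11975 the difference is smaller. TPM is divided by the effective length, and the part of these fragment sizes in the TPM of short members was not tested.

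Places 3 to 10 were held by NV2.16602, NV2.5735, NV2.6253, NV2.11636, NV2.3883, NV2.23687, NV2.6199 and NV2.22180. Their means lay between 6678 and 9510 TPM in shRNA libraries and between 7107 and 9944 TPM in controls, and neighbours in this order differed by less than the spread between replicates. NV2.16602, for example, had 9510 ± 3409 TPM in shRNA libraries and 9944 ± 3768 TPM in controls (SD, n = 4 each). In all, 2 members had a mean control TPM over 10000, 26 over 5000 and 78 over 2000, and the median was 3127.

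**Figure D1:**
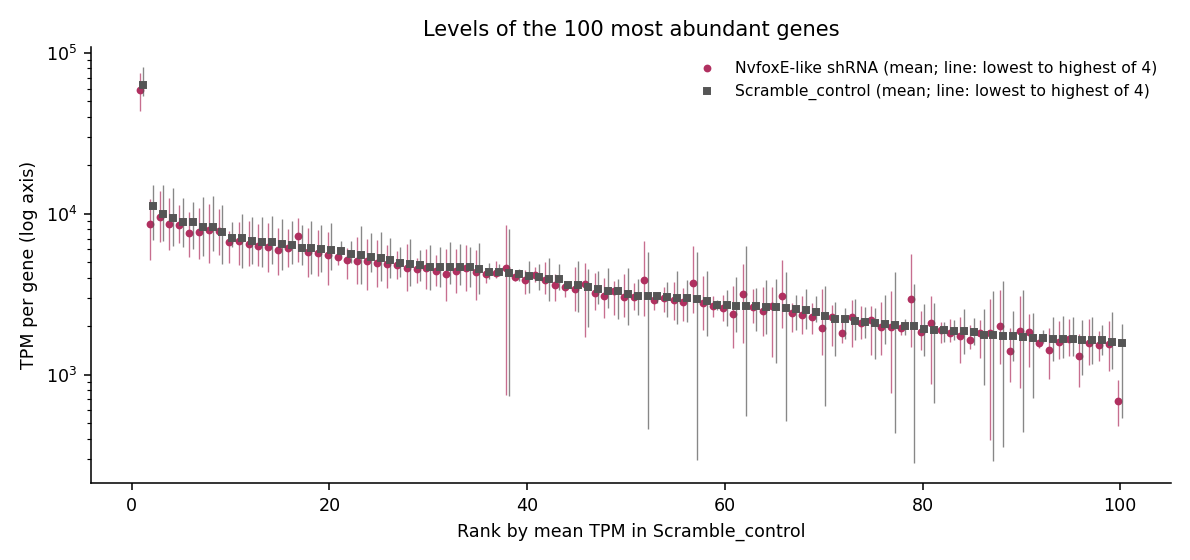
TPM per gene (log axis) of the 100 members in order of their mean control TPM. Points are means of 4 NvfoxE-like shRNA libraries (circles) or 4 Scramble_control libraries (squares) and vertical lines run from the lowest to the highest library. NV2.1062 lies apart at the top with a control mean of 63275 TPM, and the last member has 1566 TPM. Over all 8 libraries together, 13 members range at least 4-fold.

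At the edge of the set, NV2.5447 (rank 99) had a mean of 1593 TPM and NV2.11815 (rank 100) 1566 TPM in the controls. The first genes outside were NV2.7884 with 1548 TPM and NV2.4127 with 1509 TPM. The membership depended little on which group was used: 96 members were also among the 100 highest of the shRNA libraries and 98 among the 100 highest of all 8. In single libraries the overlap was between 82 and 97 genes, lowest in control replicate 2. Ranking by CPM, the estimated counts relative to the library's total with no division by length, kept 55.

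The members together held a large part of every library. Their share of TPM was 47.1%, 51.8%, 34.4% and 38.7% in shRNA replicates 1 to 4, against 47.1%, 55.4%, 37.1% and 40.4% in control replicates 1 to 4. The means were 43.0 ± 7.90% in shRNA libraries and 45.0 ± 8.09% in controls (SD, n = 4 each), a difference of -1.99 percentage points (exact permutation p = 0.743, two-sided). Within pairs of the same number, which share a prefix, the differences were 0.057, -3.63, -2.71 and -1.69 percentage points, lower in the shRNA library of 3 of 4 pairs (exact sign-flip p = 0.25, two-sided, where 4 pairs allow no p below 0.125). In estimated counts, which are not divided by length, the share was 21.4%, 21.7%, 11.7% and 14.02% in the shRNA libraries, against 20.3%, 22.9%, 11.97% and 16.8% in the controls. The first 10 members held 13.1 ± 3.53% of TPM but 1.63 ± 0.827% of counts in shRNA libraries, and 14.3 ± 3.91% of TPM but 1.95 ± 1.08% of counts in controls.

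**Figure D2:**
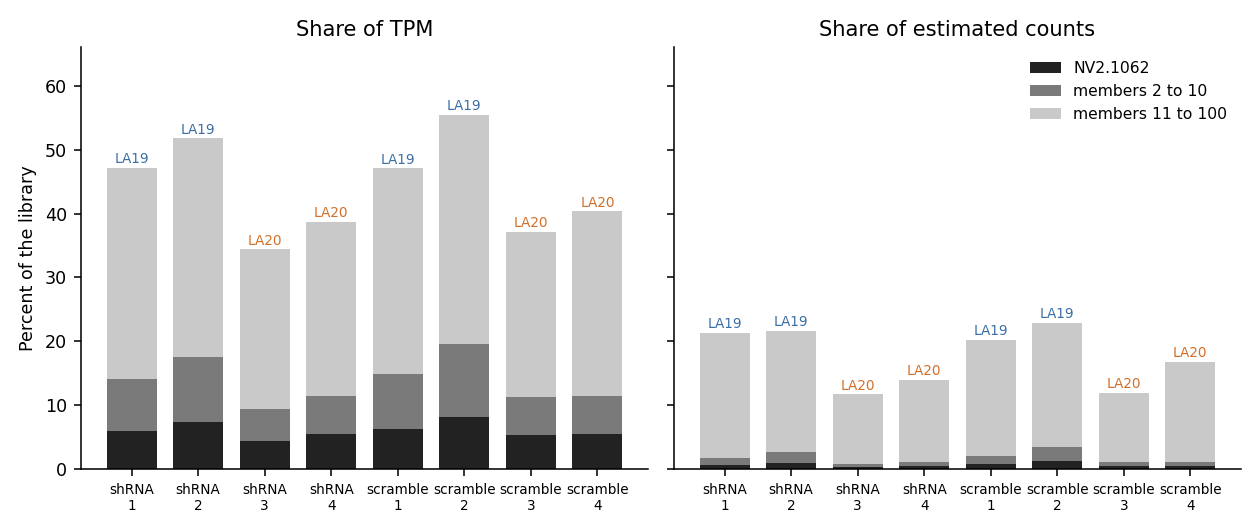
Percent of each library held by NV2.1062, members 2 to 10 and members 11 to 100 (stacked bars), of TPM at left and of estimated counts at right, with the library prefix above each bar. The LA20 bars reach 34.4% to 40.4% of TPM and the LA19 bars 47.1% to 55.4%, in both groups.

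A wider difference in the share lay between the prefixes. The share of TPM was 34.4% to 40.4% in the 4 LA20 libraries (mean 37.7 ± 2.54%, SD) and 47.1% to 55.4% in the 4 LA19 libraries (mean 50.4 ± 4.04%, SD), with no overlap. The share of counts was 11.7% to 16.8% in LA20 and 20.3% to 22.9% in LA19. Each prefix holds 2 libraries of each group but only 2 replicate numbers. Same-numbered libraries are not independent, so these SDs do not measure the spread of 4 separate replicates. The difference in share between prefixes was not tested.

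The messages of the members are short. Their TPM-weighted transcript length had a median of 637 bases, against 1521 bases for the 900 genes next in rank and 2258 bases for the 16572 genes with a mean control TPM of 1 or more. Of the members, 30 were under 500 bases and 81 under 1000 bases, while 12.8% of those 16572 genes were under 1000 bases. All of the first 10 were under 1000 bases. TPM is divided by length, so the choice itself favours short transcripts. The 100 genes highest in CPM had a median of 1454 bases.

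The shortest members were NV2.11975 (208 bases), NV2.1063 (265 bases) and NV2.11636 (351 bases). NV2.1063 had 1860, 2184, 1570 and 1644 TPM in the shRNA libraries, against 2587, 2157, 2437 and 1658 TPM in the controls, and was highest in the 2 control libraries with the shorter fragments. It stands next to NV2.1062 in the numbering of the annotation. The longest members were NV2.13030 (8098 bases), NV2.8570 (3885 bases) and NV2.25858 (2921 bases). NV2.8570 had 4695, 5314, 4443 and 3692 TPM in the shRNA libraries, against 5174, 5976, 3833 and 4194 TPM in the controls, which made 1.03% to 2.98% of all counts. NV2.13030 held as much as 5.18% of all counts in shRNA replicate 1 and as little as 0.501% in control replicate 2.

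Most members have a single annotated transcript (80 of 100, against 78.0% of all genes), and in 17 of the other 20 the leading transcript held at least 90% of the TPM. In 88 members the summed count was whole in none of the 8 libraries, which was so for 31.2% of detected genes. Salmon divides a read that matches several transcripts, and a sum with a fraction left over means that reads were shared out between genes. For these members the level includes reads that could not be placed uniquely, and the amount is not known. A single shared read can leave a fraction, so the measure also depends on the number of reads. The mean counts of the members had a median of 25111, and genes of like depth were not compared. The identifiers NV2.1062 and NV2.1063, NV2.7077 and NV2.7080, and NV2.8241, NV2.8242 and NV2.8244 are close neighbours in the numbering. None of the 38 published cnidocyte genes with an identifier was a member.

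Which members separated replicates 1 and 2 from replicates 3 and 4 was read first from CPM scaled by TMM, which sets the middle of all genes equal between libraries. All 4 LA20 libraries lay below all 4 LA19 libraries in 81 members, where 28.0% of the 19002 tested genes did so. The opposite order was found in 3 members, against 28.6% of tested genes, and 16 members overlapped. The members were chosen on control TPM, so the control libraries enter both the choice and these counts. The median log2 fold change, LA20 over LA19, was -1.33 for the members, -0.90 for the 900 genes next in rank and 0.01 for all tested genes.

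The test of this contrast treated the 2 libraries of a replicate number as 1 sum, 2 numbers against 2. In edgeR 0 members were called (adjusted p of 0.05 or less and at least 1.5-fold), where 0.0586% of 20484 genes were called, and the smallest adjusted p of a member was 0.0701 (edgeR). At an unadjusted p of 0.05 or less with the same fold, 76 members were lower (16.9% of genes) and 2 higher (22.0% of genes) in LA20. DESeq2 on the same sums called 72 members lower (9.02% of genes) and 2 higher (14.9% of genes). Taking the 8 libraries as separate samples, edgeR called 78 members lower (25.5% of genes) and 2 higher (26.9% of genes), but same-numbered libraries are not independent for this contrast. The shRNA libraries alone gave 70 lower (4.51% of genes) and 1 higher (10.9% of genes), 2 libraries against 2. They were not used to choose the members, but they share replicate numbers and prefixes with the controls that were. Their result is therefore not independent of the choice. In the control libraries alone edgeR called 0 genes, with 72 members lower and 2 higher at an unadjusted p of 0.05 or less with the same fold (13.6% and 18.9% of genes).

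Of the members lower in LA20, NV2.7223 had the largest difference in counts, by a narrow margin. It had 1881, 2007, 1734 and 2106 TPM in the LA20 libraries (shRNA 3 and 4, then control 3 and 4), against 3165, 4117, 3233 and 4421 TPM in the LA19 libraries (shRNA 1 and 2, then control 1 and 2). Its log2 fold change in counts was -1.79 ± 0.40 (SE, adjusted p = 0.0701, edgeR). NV2.5735, NV2.12123, NV2.14792 and NV2.3883 followed, with log2 fold changes of -1.74 ± 0.41 to -1.70 ± 0.39 and the same adjusted p. In each of these 5 members replicate 2 was the highest library of its group. That was so for 78 members in CPM (34.4% of genes) and for 68 in TPM (8.60% of genes), where replicate 2 belongs to LA19. Without replicate 2 the median log2 fold change of the members was -0.94, and without replicate 1 it was -1.67. Without replicate 1 edgeR called 78 members lower (21.5% of genes) and 5 higher (27.0% of genes). Without replicate 4 the only member called was NV2.5887, which was higher (7.77% of genes), and without replicate 2 or 3 edgeR called 0 members among 15 and 392 genes.

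Length and the prefix difference went together across the members. Members under 500 bases had a median log2 fold change of -1.52, and 29 of 30 lay lower in LA20 without overlap, as did 31.4% of the tested genes outside the set in this length class. For 500 to 1000 bases the median was -1.33 (42 of 51 lower, against 45.1% of genes outside), for 1000 to 2000 bases -0.72 (8 of 14, against 44.1%) and for 2000 bases or more -0.36 (2 of 5, against 18.4%). The genes outside had median log2 fold changes of -0.76, -0.90, -0.54 and 0.43 in the same classes, from short to long. Entering the effective length of each gene and library as an offset left the 4 medians of the members at -1.51, -1.33, -0.71 and -0.36. Such an offset carries only the differences in a gene's effective length between libraries. It could therefore not remove an effect of transcript length itself, and the part of length in the prefix difference was not tested.

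**Figure D3:**
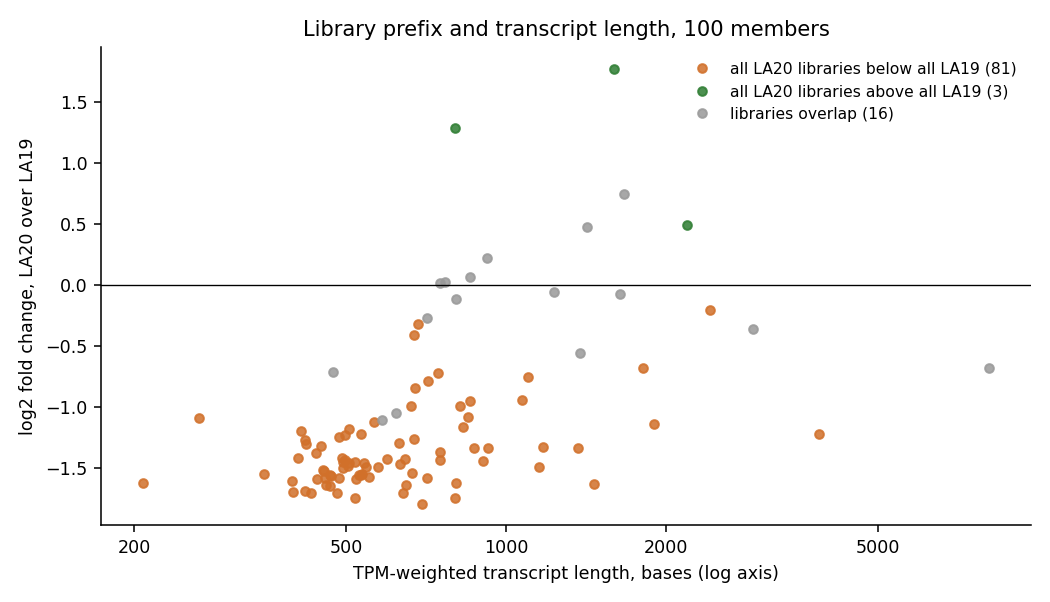
Log2 fold change of the 100 members between library prefixes, LA20 over LA19 (counts summed per replicate number), against TPM-weighted transcript length in bases (log axis). Colours mark whether the 8 libraries separate: 81 members lie lower in LA20, 3 higher, and 16 overlap, and 29 of the 30 members under 500 bases are among those lower in LA20.

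In scaled counts 3 members went the other way without overlap. NV2.5887, a gene of about 1596 bases with 6 transcripts, had 8487, 7012, 8065 and 6505 TPM in the LA20 libraries, against 2267, 742, 1917 and 731 TPM in the LA19 libraries. Its log2 fold change was 1.77 ± 0.41 in counts (SE, adjusted p = 0.0701, edgeR), close in size to that of NV2.7223, and larger in TPM, where that of NV2.7223 was -0.94. Its lowest libraries in both groups were replicate 2. NV2.17007 had 2937, 2685, 3288 and 2421 TPM in LA20, against 1224, 391, 1007 and 291 TPM in LA19 (1.28 ± 0.44, adjusted p = 0.0831, edgeR). NV2.15563 had 3073, 2665, 2770 and 2588 TPM in LA20, against 1737, 875, 1561 and 665 TPM in LA19, and in counts its log2 fold change was 0.49 ± 0.32 (adjusted p = 0.282, edgeR). In these 3 genes the 4 replicates stood in the same order of TPM in shRNA and control embryos.

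The scale matters for these counts. In TPM the median of the 20484 genes tested was 0.43 higher (log2) in LA20 than in LA19, where it was 0.02 higher in scaled counts, so TPM changes have to be read against that shift. In TPM, 63 members lay lower in LA20 without overlap (6.60% of genes) and 12 higher (49.2% of genes), and in CPM without TMM scaling 77 lay lower (21.2% of genes) and 4 higher (34.4% of genes). The direction in which a member lay differed between scaled counts and TPM in 15 members, all of them lower in LA20 in counts and higher in TPM. The median of the members in TPM was -0.51.

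The 4 members with the smallest spread in scaled counts show this dependence. NV2.6333 had 1081, 897, 857 and 878 CPM in the shRNA libraries, against 1011, 982, 909 and 993 CPM in the controls, an SD of 0.12 in log2 CPM. In TPM the same gene had 2168, 1315, 2669 and 2532 in the shRNA libraries, against 1966, 1242, 2590 and 2608 in the controls, and replicate 2 was the lowest of each group. NV2.5899, NV2.6921 and NV2.3097 had SDs of 0.14, 0.15 and 0.19 in log2 CPM, and in TPM ranged 2.166-fold, 2.97-fold and 2.89-fold over the libraries. In TPM these 4 members were 0.58 to 0.87 (log2) higher in LA20.

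Members that were steady in TPM were others, picked out here after their values were seen. NV2.6672 had 4403, 4190, 3809 and 3875 TPM in the shRNA libraries, against 4372, 4557, 3827 and 4002 TPM in the controls, a range of 1.20-fold. By the SD of log2 TPM, which was smallest in NV2.6672, the next were NV2.6419 (range 1.25-fold), NV2.7107 (1.26-fold) and NV2.6264 (1.29-fold), although NV2.23518 and NV2.8478 had narrower ranges than NV2.6264 (1.27-fold each). In scaled counts the same 4 genes were lower in LA20, with log2 fold changes of -0.68 to -0.99. Over all members the range from the lowest to the highest library had a median of 2.07-fold in TPM, against 1.80-fold for the 900 genes next in rank; 12 members ranged less than 1.5-fold (10.3% of tested genes) and 57 at least 2-fold (73.5% of tested genes).

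As a set, the members were not the steadiest genes from library to library. The SD of log2 CPM over the 8 libraries had a median of 0.83 in members, 0.62 in the 900 genes next in rank and 0.51 in all tested genes. In log2(TPM + 1) the medians were 0.40, 0.30 and 0.40. Between a knockdown library and the control of the same number the prefix is shared. There the SD of the 4 log2 ratios had a median of 0.14 in members and 0.15 in the 900 genes next in rank. In all tested genes it was 0.26. This SD shows how alike the 4 pairs were, not how far a gene moved. The size of the paired log2 fold change, given below, had a median of 0.22 in members, against 0.10 and 0.14 in the other sets.

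A small group of members varied in a way that did not follow the prefix alone. In TPM, 6 members had both replicate 1 and replicate 4 above replicates 2 and 3 in each group (2.28% of tested genes): NV2.13030, NV2.8244, NV2.5488, NV2.8242, NV2.8241 and NV2.25858. This grouping was noticed after the values were seen. In TMM-scaled CPM 0 members had this order (2.14% of tested genes): there shRNA replicate 2 lay above shRNA replicate 4 in all 6, while the controls kept replicates 1 and 4 above 2 and 3. In TPM the order of NV2.8241 rested on 2332 against 2328 in shRNA replicates 4 and 2. A prefix difference in counts was present too: NV2.8241, NV2.8244, NV2.13030 and NV2.5488 had log2 fold changes, LA20 over LA19, of -1.10, -0.56, -0.68 and -0.27.

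NV2.13030, the longest member and the one with the most counts (562129 on average), had 6803, 2589, 2308 and 3878 TPM in shRNA replicates 1 to 4, against 4657, 460, 1474 and 5751 TPM in control replicates 1 to 4. NV2.8244 had 6313, 2400, 2609 and 3567 TPM in the shRNA libraries, against 4369, 293, 1399 and 5803 TPM in the controls, a range of 21.5-fold and the widest of the set. NV2.8241 had 5590, 2328, 1487 and 2332 TPM in the shRNA libraries, against 3399, 280, 670 and 3637 TPM in the controls. These 3 were lowest in control replicate 2 and, with NV2.5488, were the 4 members of largest SD in log2 CPM (1.08 to 1.37).

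NV2.5488 had 4843, 2250, 1567 and 4077 TPM in the shRNA libraries, against 2693, 556, 1123 and 6297 TPM in the controls. NV2.25858 had 3365, 1171, 1299 and 2235 TPM in the shRNA libraries, against 2069, 356, 740 and 3795 TPM in the controls. All 6 were higher in the shRNA library of pairs 1, 2 and 3 and lower in that of pair 4. Together they took 7.11%, 3.37%, 1.84% and 3.40% of counts in the shRNA libraries, against 4.91%, 0.726%, 1.19% and 5.38% in the controls. Of the 6, NV2.8241, NV2.8242 and NV2.8244 carry neighbouring identifiers.

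**Figure D4:**
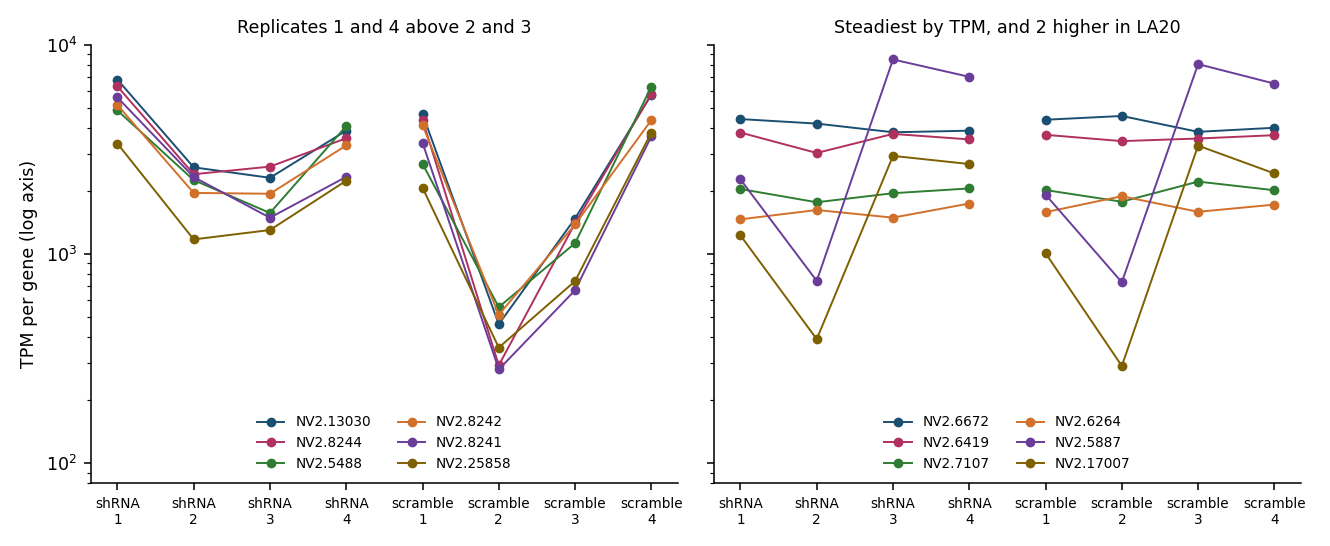
TPM per gene (log axis) in the 4 NvfoxE-like shRNA and 4 scramble libraries; each colour is a gene and lines only join its values. At left the 6 members whose replicates 1 and 4 exceed 2 and 3, with control replicate 2 lowest at 280 to 556 TPM; at right the 4 members steadiest in TPM and 2 that are higher in LA20, NV2.5887 and NV2.17007.

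The last question was how far the members held their level under NvfoxE-like shRNA. Since they were chosen on the control libraries, the controls enter both the choice and this contrast, and a gene near the edge can have come in through high control values. Without the block, 0 members and 0 genes (0%) were called by edgeR, and 0 members by DESeq2, which called 0.236% of genes; at an unadjusted p of 0.05 or less alone edgeR had 1 member and 1.64% of genes. The 95% interval lay inside 1.5-fold in both directions for 5 members (6.04% of genes), so for most members this fit could not tell a change of that size from none.

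With the replicate number as a block the intervals were narrower, and they lay inside 1.5-fold for 88 members (58.0% of genes). The median distance from the estimate to an end of the interval was 0.183 (log2) in members. It was 0.190 in the 900 genes next in rank and 0.326 in all tested genes. The 58.0% thus rests on wider intervals, and the share of the 900 genes inside 1.5-fold is not given here. The count of 88 therefore does not show that members were steadier than genes of like precision. In this fit 1 member was called lower (1.07% of genes) and 0 higher (0.211% of genes); DESeq2 with the block called 1 member too, NV2.11815 in both (1.38% of genes). At an unadjusted p of 0.05 or less, 61 members stood out (9.87% of genes), with small changes: the size of the log2 fold change had a median of 0.22 in members, 0.10 in the 900 genes next in rank and 0.14 in all tested genes. Narrower intervals let smaller changes pass this limit, and the share among the 900 genes of like precision is not given here.

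Most of these small differences pointed downwards in scaled counts. The paired log2 fold change was below 0 in 86 members and its median was -0.20, against -0.08 for the 900 genes next in rank and 0.02 for all tested genes. In 64 members the shRNA library was lower in 4 of 4 pairs (10.1% of genes), and in 0 it was higher in 4 of 4 (9.04% of genes). The median ratio of the members was -0.08, -0.32, -0.20 and -0.19 in pairs 1 to 4. The first 10 members lay between -0.45 and -0.14; NV2.1062 was at -0.30 ± 0.08 (SE, adjusted p = 0.169, edgeR with the block).

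This tilt was smaller in TPM, where the median of the members was -0.06 while that of all tested genes was 0.10, and 22 members were lower in 4 of 4 pairs (4.52% of genes) and 3 higher (20.2% of genes). The sign of the paired change differed between counts and TPM in 13 members. The 100 highest genes of the shRNA libraries had a paired median of -0.19 in scaled counts. Of them, 63 were lower in 4 of 4 pairs (10.1% of genes) and 0 were called (1.28% of genes). The controls had no part in that choice, but 96 of these genes are members, so this is not a separate set.

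**Figure D5:**
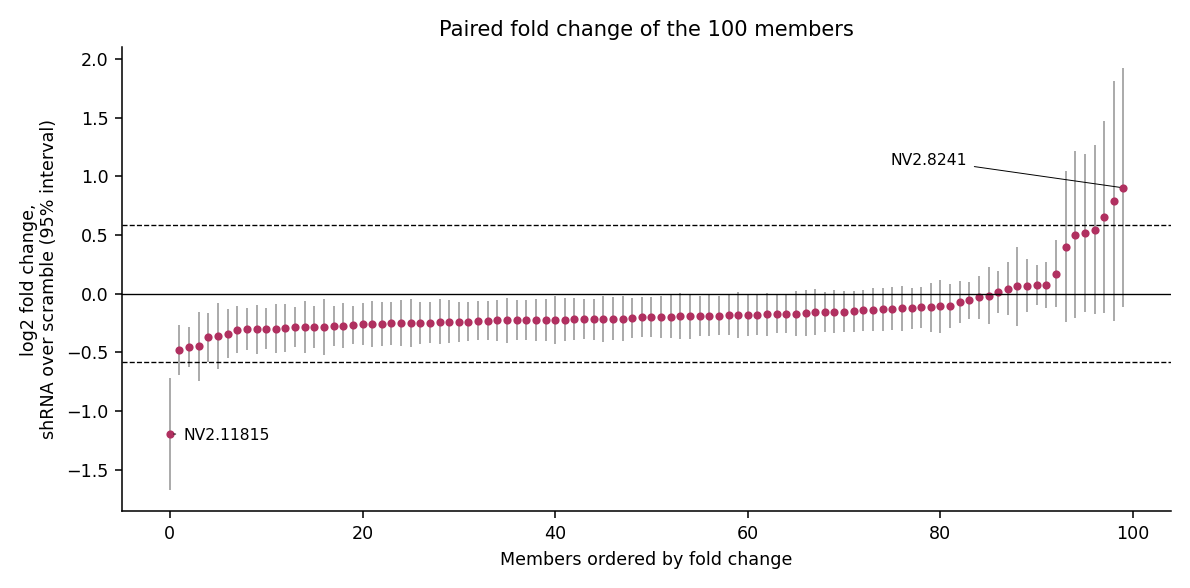
Paired log2 fold change, shRNA over scramble, of the 100 members in ascending order, with 95% intervals (edgeR with the replicate number as a block) and dashed lines at 1.5-fold. The intervals of 88 members lie inside the dashed lines; NV2.11815 is lowest at -1.19 and NV2.8241 highest at 0.90 with a wide interval.

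The member called was NV2.11815, the last in rank, a gene of 753 bases. It had 797, 482, 545 and 923 TPM in the shRNA libraries, against 1666, 534, 2059 and 2003 TPM in the controls. Control replicate 2 lay among the shRNA libraries in TPM, and in CPM the shRNA libraries (156 to 356) all lay below the controls (376 to 769). Its paired log2 fold change was -1.19 ± 0.21 (SE, adjusted p = 0.0259, edgeR), lower in 4 of 4 pairs, and without the block -1.18 with an adjusted p of 1. Without replicate 1 or without replicate 4 it was no longer called, at log2 fold changes of -1.22 and -1.18 (adjusted p = 0.136 and 0.151, edgeR with the block). It was not among the 100 highest genes of the shRNA libraries.

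NV2.9154 and NV2.6876 also had an adjusted p under 0.05 in the paired fit but changed less than 1.5-fold. NV2.9154 had 1111, 834, 1498 and 1791 TPM in the shRNA libraries, against 1631, 998, 1800 and 2175 TPM in the controls (-0.46 ± 0.08, adjusted p = 0.0152, edgeR). NV2.6876 had 1603, 1953, 905 and 1146 TPM in the shRNA libraries, against 1944, 2467, 1329 and 1209 TPM in the controls (-0.48 ± 0.10, adjusted p = 0.0450, edgeR). In both genes the groups overlapped, and each was lower in 4 of 4 pairs. These ranks, 89, 96 and 100, lie near the edge of the set, and all 3 genes fell outside the 100 highest of the shRNA libraries. Among the first 10, NV2.11636 had the smallest unadjusted p, with -0.37 ± 0.09 and an adjusted p of 0.126 (edgeR with the block).

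On the higher side, NV2.8241, NV2.13030, NV2.25858 and NV2.8244 had the smallest p. Their paired log2 fold changes were 0.90 ± 0.45, 0.65 ± 0.36, 0.52 ± 0.30 and 0.79 ± 0.46 (SE), with adjusted p from 0.545 to 0.593 (edgeR with the block), so none was called. Each was higher in 3 of 4 pairs and lower in pair 4, and the difference was largest in pair 2, where NV2.8241 had a log2 ratio of 2.84. Without replicate 2 the log2 fold changes of these 4 members, in the same order, fell to 0.29, 0.14, 0.18 and 0.16 (edgeR with the block). Most of their rise thus rested on pair 2. Without replicate 4 they were 1.46, 1.10, 0.96 and 1.34. With replicate 4 left out, NV2.25858 and NV2.8182 were called higher, where 0.121% of genes were. Whether the shRNA difference itself differed between LA20 and LA19 was tested with 2 pools of each group per prefix, a size at which edgeR called 0 genes (0%) without the block and 0.0263% of genes with it, so 0 members called does not show that the members responded alike. Without the block 0 members had an unadjusted p of 0.05 or less (0.700% of genes). With the block 7 members had one together with a difference of at least 1.5-fold, all of them with a lower ratio of shRNA to control in LA20 than in LA19 (1.42% of genes), and 0 with a higher one (1.11% of genes). These 7 were the 6 members whose replicates 1 and 4 stood above replicates 2 and 3 in TPM, and NV2.11815.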

How the data were processed

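Whole-embryo polyA RNA of 8 pools was sequenced as 150 bp paired-end reads. Reads were quantified by the authors in Salmon on Nvec200 transcripts, giving 1 deposited table per library with 35819 transcripts. Which version, strand and bias settings were used is not given in the sources used here. The authors deposited estimated counts as Salmon's expectation for each transcript. The deposited TPM values, scaled within a library, and the deposited transcript lengths and effective lengths (other columns) also come from Salmon. DESeq2 is named in the submitters' processing notes.

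Counts and TPM were summed per gene (the gene number inside the transcript name, written NV2.number), and count sums were rounded. TPM-weighted means gave gene lengths. RefSeq's gene table (38762 rows) matched 0 identifiers, so names, sequences and coordinates are not given. The members, lists and tests were chosen with earlier results of these data known.

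Groups were compared over all genes with edgeR 4.0.16 under R 4.3.3 (quasi-likelihood F test, TMM, filterByExpr with a minimum count of 10, 19002 genes for the groups and 20484 for the prefixes), without a covariate, called at 1.5-fold or more with an adjusted p (Benjamini-Hochberg) not above 0.05. SEs were derived from the F statistic. Alternatives were DESeq2 1.42.0, limma 3.58.1 on log2(TPM + 1), RLE scaling, no filter, length offsets, a prefix covariate, scaling without the members, and each replicate left out. The methods describe replicates as pairs; after subtracting group means, libraries of the same number correlated across genes at r = 0.52, 0.90, 0.89 and 0.77, all over 0.1, so same-numbered libraries count as pairs, although different numbers within a prefix correlated at 0.54 to 0.76 and shRNA 1 more with control 2 (0.56) than with control 1, and the fit with the number as a block is given where it changes a call. Nothing further says that pools came from separate spawnings, so p-values measure the spread between these pools. No library pair agreed within sampling noise (smallest chi-square per degree of freedom 21.2). Log2 CPM used a pseudocount of 0.5 and log2 TPM one of 1. A sum within 0.01 of a whole count was taken as whole. The scripts were tested on simulated data. Named members were the first 10, the last 2 with the first 2 genes outside, up to 5 per direction between prefixes, up to 4 per direction between groups, the 4 of smallest and 4 of largest SD, and the 3 shortest and 3 longest; members named after their values were seen are marked so.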

Additional observations from a re-analysis of the deposited data

How the results depend on the processing

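The shRNA against control test without a block called 0 genes under RLE scaling, no filter, length offsets, limma on log2(TPM + 1), a prefix covariate, scaling without the members, and with each replicate left out in turn (0 to 0), and 56 genes but 0 members in DESeq2. With the replicate block it called 243 genes and 1 member, with DESeq2 and the block 328 genes and 1 member, and with limma and the block 190 genes and 0 members. Both fits added after seeing the data, length offsets with the block and scaling without the members with the block, called 236 and 244 genes and 1 member each. Leaving out one replicate with the block gave 145, 271, 209 and 150 genes for replicates 1 to 4, and 0 to 2 members.

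Between prefixes edgeR called 12 genes and 0 members. The 8 libraries with treatment as a covariate gave 9944 genes and 80 members, the shRNA libraries alone 2965 and 71, the control libraries alone 0 genes, DESeq2 5695 genes and 74 members, no filter on low counts 2720 and 59, and limma on TPM 1 gene. Of the 80 members called over the 8 libraries, 74 were also called by DESeq2 on the sums and 69 in the shRNA libraries alone. Leaving out each replicate gave 15 to 10286 genes and 0 to 83 members, and there the prefix left with 1 number is assumed to vary like the other. No paired analysis of the prefix was possible because each replicate number lies within 1 prefix. The interaction with the block called 5 genes and 0 members. The cause of these shifts in counts was not tested.

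The difference in the share of TPM, -1.99 percentage points, lay between -2.68 and -1.45 with each replicate left out and was -1.81 and -1.88 for members chosen on the shRNA or on all 8 libraries. In counts the difference was -0.79 for the members. For genes chosen by CPM it was -0.84 in TPM, lower in 3 of 4 pairs, and -0.29 in counts. In the counts of those genes pairs 1 to 3 were higher in shRNA and pair 4 alone, at -3.42, lower. With the replicate block the share difference of -1.99 had an exact sign-flip p of 0.25, against a permutation p of 0.743 without it. The median length of 637 bases was 334 bases as effective length and 1454 bases for genes chosen by CPM, a choice added after seeing the data. The median SD of 0.83 in log2 CPM was 0.40 in log2(TPM + 1). The 8 members named for the difference between groups and the 8 named for that between prefixes kept their direction in the fits run for them. Of the 4 members with the smallest SD, whose prefix differences in counts were near 0, NV2.6333 (0.68), NV2.5899 (0.58) and NV2.6921 (0.72) turned to higher in LA20 in limma on TPM. NV2.6921 also turned in the control libraries alone (0.15). With each replicate left out NV2.6921 lay between -0.15 and 0.025, higher without replicate 1, and NV2.3097 between -0.10 and 0.23, lower without replicate 2. Depth was not limiting for the members, which had 1758 to 562129 counts on average, and 13 of them averaged under 10000.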
